A study of Mus musculus with 12 samples.

Results

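Forkhead transcription factors were followed in RNA from the cardiogenic region of mouse embryos, as the 40 genes of 48709 counted gene intervals whose symbol is Fox with a letter from a to s and a number. Cardiogenic regions had been dissected at 4 stages, named by the embryonic day (E8, then E8.5, then E9.5, then E14), and each stage had 3 libraries of total RNA. The labels give a stage and a replicate number, and no strain, genotype, sex, treatment or number of embryos behind a library, so the spread behind each p-value is that between libraries and may be technical. E8 to E9.5 cover the forming and looping heart tube and E14 the chambered fetal heart. Each library held between 56574386 and 122785175 counts.

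Forkhead proteins share a winged-helix DNA-binding domain whose recognition helix, the third helix, lies in the major groove of the DNA. Some members, the Foxa proteins among them, can bind their sites in closed chromatin and open it for other factors. Others are switched by signals: insulin and growth factors act through Akt to move Foxo proteins out of the nucleus. In the heart the family is known for Foxp1 and Foxo1, which act in the muscle wall and the vessels, and for genes that pattern the foregut and pharyngeal tissue lying against the heart tube.

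The coding sequence at the core of the recognition helix can be compared between members. A stretch of 24 bases at the core of that helix was found in the transcripts of 39 of the 40 members, including all 18 that were well measured. In these 39 genes 7 of the 24 bases were the same, and the other genes differed from Foxo3 at between 1 and 12 positions. The stretch was located by a protein pattern that fixes an asparagine, an arginine and a histidine. Most of the shared bases were therefore set by the search, and their number is no measure of conservation. The stretches of 9 genes whose values are described here follow, from the GENCODE M21 transcripts, 5′ to 3′, with capitals for the bases that differ from Foxo3.
Foxo3: aactccatccggcacaacctgtcc
Foxo4: aactccatccgTcacaacctgtcc
Foxp4: aaTGccGtGcgCcacaacctCAGc
Foxk1: aactcTatccgAcacaacctCtcT
Foxn2: aaTtcTGtTcggcaTaaTctAtcc
Foxa1: aactccatccgCcacTCGctgtcc
Foxe1: aacAGcatccgCcacaacctCAcc
Foxf1: aactccGtGcgCcacaacctgtcG
Foxs1: aacAGcatccgCcaTaacctgtcT
The Foxo4 stretch differed from that of its paralogue Foxo3 at 1 position, the Foxa1, Foxf1 and Foxk1 stretches at 4, the Foxe1 and Foxs1 stretches at 5, the Foxn2 stretch at 7 and the Foxp4 stretch at 8.

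Promoter windows, from 250 bases before to 50 after the annotated start, were matched in RefSeq (GRCm38.p6) for 26 of the 40 members. Those of Foxa1 and Foxa3 are shown, both among the members that fell at E14 against E8. Among the other members that fell there, the windows of Foxf2 and Foxp4 held none of the motifs searched. Windows of Foxk2, Foxi2 and Foxp3, which fell as well, held CCAAT or its reverse complement. Capitals mark 3 motifs, each searched on both strands. The motifs GCAAACA and AGATAA were searched as well and were in neither window shown. The core forkhead site was GTAAACA, which reads as TGTTTAC on the opposite strand. The CCAAT box reads as ATTGG on the opposite strand, and the box TATAAA, found near many start sites, reads there as TTTATA.
Foxa1, chr12:57546062-57546361, minus strand: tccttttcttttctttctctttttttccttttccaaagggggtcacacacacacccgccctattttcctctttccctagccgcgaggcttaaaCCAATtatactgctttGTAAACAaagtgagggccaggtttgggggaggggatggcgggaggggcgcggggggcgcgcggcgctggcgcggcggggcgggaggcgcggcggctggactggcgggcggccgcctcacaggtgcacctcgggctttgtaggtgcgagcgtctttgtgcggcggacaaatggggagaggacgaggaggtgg
Foxa3, chr7:19023490-19023789, minus strand: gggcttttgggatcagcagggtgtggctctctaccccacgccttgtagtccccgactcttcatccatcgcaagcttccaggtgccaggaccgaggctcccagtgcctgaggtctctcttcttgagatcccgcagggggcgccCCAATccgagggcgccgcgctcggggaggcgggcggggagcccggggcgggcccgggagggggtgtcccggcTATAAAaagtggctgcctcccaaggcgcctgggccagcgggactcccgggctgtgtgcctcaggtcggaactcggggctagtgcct
In the Foxa1 window GTAAACA began 141 bases and CCAAT 157 bases before the start. In the Foxa3 window CCAAT began 108 bases and TATAAA 36 bases before the start. Of all 32851 windows of this length, 3.65% held GTAAACA on either strand, 37.4% held CCAAT and 13.6% held TATAAA.

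Members were sorted by how well they were measured. The 18 well measured genes had at least 100 counts in every library of at least 1 stage: Foxa1, Foxe1, Foxf1, Foxj2, Foxj3, Foxk1, Foxk2, Foxm1, Foxn2, Foxn3, Foxo1, Foxo3, Foxo4, Foxp1, Foxp2, Foxp3, Foxp4 and Foxs1. A further 11 were low, passing edgeR's filter on low counts but not that mark, and 11 lay near the floor, did not pass the filter and were not tested. Levels are given as CPM, the count scaled to library size with TMM factors and not corrected for gene length, so a level is compared between stages and not between genes. "Rose" and "fell" are used of genes with an adjusted p under 0.05 in edgeR's quasi-likelihood test over all 28846 genes tested.

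Replicate 3 of E8.5 stood apart from the other E8.5 libraries. Summed heart muscle markers (10 genes, among them Tnnt2, Actc1 and Myh7) were between 17647 and 27041 CPM in all 12 libraries. Visceral endoderm and liver markers (10 genes, among them Afp and Ttr) summed to 1707.7 CPM in E8.5 replicate 3, against 158.5 and 59.4 CPM in E8.5 replicates 1 and 2, and endoderm and epithelium markers (10 genes, among them Epcam and Cdh1) to 447.7 CPM against 185.5 and 207.5 CPM. Calls that leaving it out ended or added are named with the comparisons. In dissected tissue, fewer cells of a type and less RNA per cell cannot be told apart.

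Between E8.5 and E8 no forkhead gene passed edgeR's test, where 1.18% of all genes tested did. At an unadjusted p under 0.05 there were 10 of 29, where 28.1% of all genes tested were. DESeq2 called 3, all higher (Foxj3, Foxn3 and Foxp1), and called 15.1% of all genes. Without E8.5 replicate 3, 10 forkhead genes rose and 5 fell, and 29.9% of all genes were called. The 10 that rose were Foxj2, Foxj3, Foxk1, Foxk2, Foxm1, Foxn3, Foxo1, Foxo3, Foxp1 and Foxp4, and the 5 that fell were Foxa1, Foxf1, Foxd2, Foxi2 and Foxj1.

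Between E9.5 and E8.5, 2 forkhead genes rose and 12 fell of 29 tested, where 37% of all genes tested were called, 18.4% higher and 18.5% lower. Their median log2 fold change was -0.35, against -0.028 over all genes. Fitting these 2 stages alone left 1 that rose and 3 that fell, with 22.5% of all genes called, and leaving out E9.5 replicate 2 or E9.5 replicate 3 left 5 that fell in each case. Without E8.5 replicate 1 or E9.5 replicate 3, 1 rose. Leaving out E8.5 replicate 3 gave 3 that rose and 15 that fell, with 43.9% of all genes called. Of the 14 calls made with all libraries 13 were kept, that of Foxq1 ended, and Foxj2, Foxk2, Foxm1 and Foxp1 were added as lower and Foxo6 as higher. The calls lost with these 2 stages alone were those of Foxj3, Foxk1, Foxn2, Foxo1, Foxo3, Foxp4, Foxi3 and Foxq1. An adjustment for gene span ended the calls of Foxj3, Foxo1, Foxo3 and Foxp4, and no filter on low counts those of Foxo1 and Foxo3. The span adjustment also added Foxf1 and Foxo4 as lower and Foxp1 as higher (edgeR adjusted p = 0.0338, 0.023 and 0.0454).

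Between E14 and E9.5, 6 rose and 13 fell, where 50% of all genes were called, 25.4% higher and 24.6% lower, and the members' median log2 fold change was -0.35 against 0.015 over all genes (without E14 replicate 2, 8 fell). In this comparison adjusting for gene span ended the calls of Foxp3 and Foxi3 and added Foxp1 as lower (edgeR adjusted p = 0.00164). No filter on low counts ended the calls of Foxp3 and Foxa3, and upper-quartile factors that of Foxi3. Between E14 and E8, 7 rose and 15 fell, where 60.7% of all genes were called, 31.5% higher and 29.2% lower, and the median was -0.67 against 0.041. With the 4 stages tested together, 25 of the 29 passed, beside 72.3% of all genes. Foxm1, Foxd2, Foxj1 and Foxl1 did not. Adjusting for gene span also ended the Foxp3 call at E14 against E8 (edgeR adjusted p = 0.0578).

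**Figure D1:**
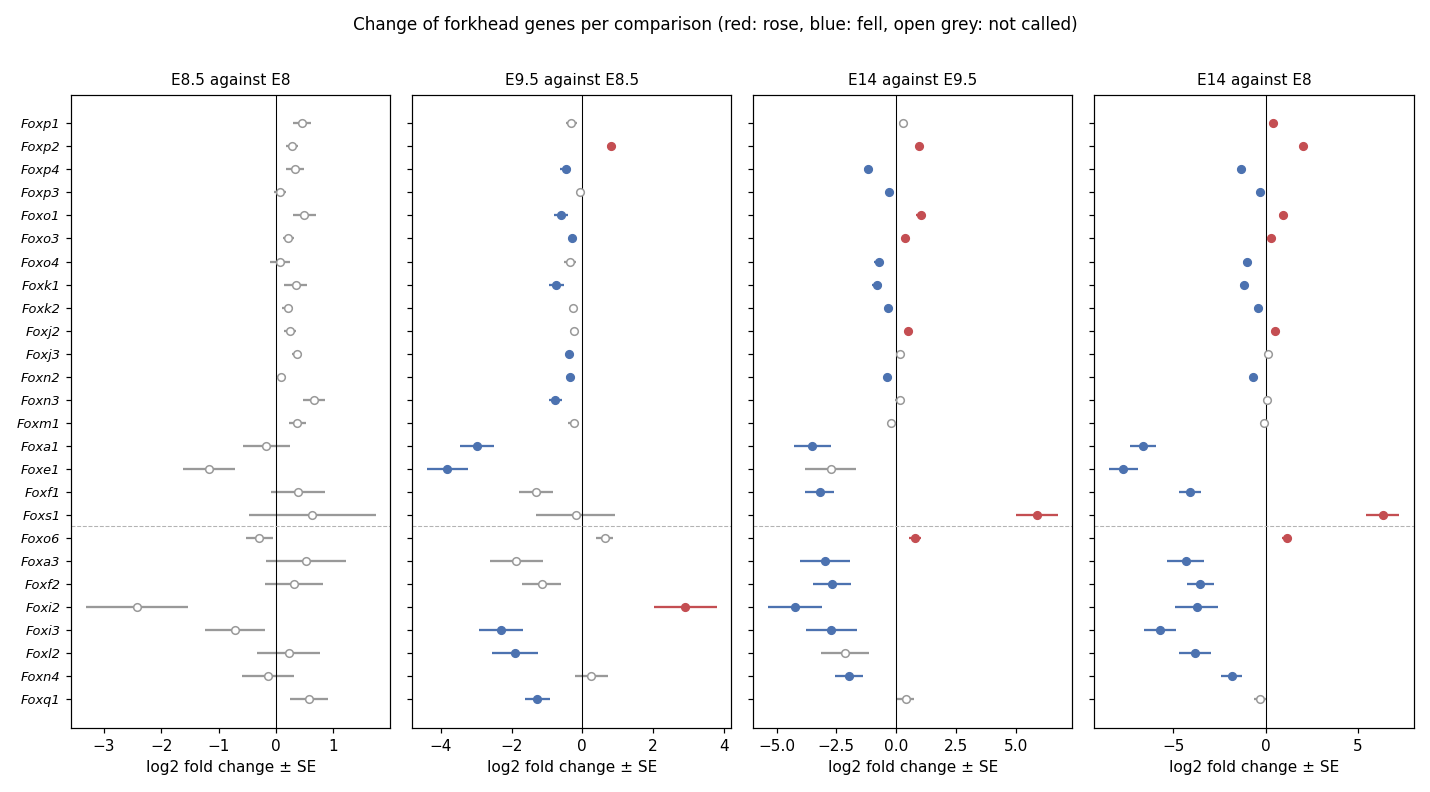
Log2 fold change and its standard error (x axis) of the 18 well measured forkhead genes (above the dashed line) and the 8 low ones that passed a test (below it) in the 4 comparisons, later stage over earlier. Filled red points rose, filled blue points fell and open grey points did not pass. The E14 against E8 panel spans from Foxe1 at -7.72 to Foxs1 at 6.33.

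The widest falls belonged to members known from the foregut and pharynx. Foxa1 and Foxe1 met the mark for a well measured gene through E8 alone, with 82 and 53 counts in their lowest E8.5 libraries. Their falls from E8 therefore start at the stage that admitted them. Foxa1, which opens chromatin in the gut endoderm, had 1.92, 1.99 and 1.84 CPM at E8, 0.697, 1.41 and 3.03 CPM at E8.5, 0.157, 0.238 and 0.251 CPM at E9.5, and 0, 0.0216 and 0.0261 CPM at E14. Each E9.5 library lay below each E8.5 library, and each E14 library below each E9.5 library. At E14 the 3 libraries together held 4 Foxa1 counts, against 664 at E8, a level 106-fold lower with a 95% interval of 41.3 to 391 (exact, counting error only). Foxa1 fell by 2.97 ± 0.48 on the log2 scale at E9.5 against E8.5 (SE, edgeR adjusted p = 0.000883), fell by 3.51 ± 0.77 at E14 against E9.5 (edgeR adjusted p = 0.0026) and fell by 6.65 ± 0.68 at E14 against E8 (edgeR adjusted p = 5.28e-06). The first of these was -2.24 ± 0.33 without E8.5 replicate 3 (edgeR adjusted p = 0.000356).

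Foxe1, a gene of the thyroid primordium and the pharyngeal endoderm, had 1.93, 2.3 and 2.27 CPM at E8, 1.36, 0.49 and 1.03 CPM at E8.5, 0.0394, 0.147 and 0.0114 CPM at E9.5, and 0, 0.0108 and 0.013 CPM at E14. The E8, E8.5 and E9.5 libraries did not overlap, and those of E14 and E9.5 did. It fell by 3.82 ± 0.58 at E9.5 against E8.5 (edgeR adjusted p = 0.000656) and fell by 7.72 ± 0.78 at E14 against E8 (edgeR adjusted p = 4.89e-06), while E14 against E9.5 missed the threshold at -2.74 ± 1.07 (edgeR adjusted p = 0.0516). The E9.5 against E8.5 value was -5.22 without E9.5 replicate 2. Its 2 counts at E14 stood against 754 at E8, a level 241-fold lower with a 95% counting interval of 66.6 to 1998. An antisense transcript, Gm12446, covers 68% of the Foxe1 interval with 2.45 times its counts, and reads of the pair cannot be told apart unless strand was used in counting, which the sources used here do not give.

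Foxf1, a gene of the mesoderm around the gut that answers to hedgehog signals, had 2.32, 2.7 and 2.65 CPM at E8, 1.25, 1.93 and 6.82 CPM at E8.5, 1.19, 1.34 and 1.52 CPM at E9.5, and 0.171, 0.119 and 0.156 CPM at E14. The E14 libraries lay below all others, and E8.5 replicate 3 above all others. At E9.5 against E8.5 Foxf1 missed the threshold at -1.30 ± 0.48 (edgeR adjusted p = 0.0549). Without E8.5 replicate 3 that value was -0.21 ± 0.20 (edgeR adjusted p = 0.437). Foxf1 fell by 3.20 ± 0.61 at E14 against E9.5 (edgeR adjusted p = 0.00106) and fell by 4.12 ± 0.60 at E14 against E8 (edgeR adjusted p = 0.000117). At E8.5 against E8 its log2 fold change was 0.38 ± 0.47 with all libraries (edgeR adjusted p = 0.629), and without E8.5 replicate 3 it was -0.72 ± 0.20 (edgeR adjusted p = 0.0195). The Foxf1 interval lies wholly inside Gm20388, a same-strand interval with far more counts, so how reads were shared between them bears on its level.

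Some low members of the same tissues fell as well, but Foxl1, of gut mesenchyme, did not. Its log2 fold change was 0.23 ± 0.27 at E14 against E8 (edgeR adjusted p = 0.48). Foxa3, a gene of gut and liver endoderm, had 76, 85 and 99 counts at E8, 38, 43 and 276 at E8.5, 17, 25 and 32 at E9.5, and 0, 1 and 7 at E14. The E14 libraries were the lowest, and E8.5 replicate 3 was the highest of the 12. It fell by 2.98 ± 1.04 at E14 against E9.5 (edgeR adjusted p = 0.033) and fell by 4.34 ± 0.99 at E14 against E8 (edgeR adjusted p = 0.00277). The E14 against E9.5 call ended without E14 replicate 1, E14 replicate 2, E9.5 replicate 2 or E9.5 replicate 3 (edgeR adjusted p = 0.0849, 0.116, 0.0605 and 0.0799), and without E14 replicate 3 the 2 values were -5.20 and -6.56. Foxf2, the sister of Foxf1, had 4 counts over the E14 libraries, against 31 over E9.5 and 78 over E8, and fell by 2.70 ± 0.80 at E14 against E9.5 (edgeR adjusted p = 0.0144) and fell by 3.54 ± 0.75 at E14 against E8 (edgeR adjusted p = 0.00145). The first of these Foxf2 calls ended without E14 replicate 2 or E9.5 replicate 1 (edgeR adjusted p = 0.0609 and 0.0519).

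Foxi3, a gene of the pharyngeal arches and their ectoderm, had 45, 76 and 70 counts at E8, 15, 49 and 46 at E8.5, 1, 5 and 11 at E9.5, and 1, 1 and 0 at E14. The E9.5 libraries lay below those of E8.5, and E14 and E9.5 overlapped at 1 count. Foxi3 fell by 2.29 ± 0.62 at E9.5 against E8.5 (edgeR adjusted p = 0.0134) and fell by 5.73 ± 0.85 at E14 against E8 (edgeR adjusted p = 9.72e-05). At E14 against E9.5 it fell by 2.71 ± 1.05 (edgeR adjusted p = 0.048), a call that ended on leaving out any library of E8, E9.5 replicates 2 or 3, E8.5 replicate 2 or any library of E14 (edgeR adjusted p between 0.0503 and 0.211). The E9.5 against E8.5 call ended without E9.5 replicate 2 (edgeR adjusted p = 0.0552), and without E9.5 replicate 3 the value was -3.16.

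Foxi2, of the same subfamily, had 8, 23 and 16 counts at E8, 1, 2 and 5 at E8.5, 2, 14 and 33 at E9.5, and 0, 2 and 0 at E14. It rose by 2.92 ± 0.89 at E9.5 against E8.5 (edgeR adjusted p = 0.0235), although the stages overlapped, and fell by 4.24 ± 1.13 at E14 against E9.5 (edgeR adjusted p = 0.00811) and by 3.75 ± 1.15 at E14 against E8 (edgeR adjusted p = 0.0139). The rise ended without E8.5 replicate 1, E8.5 replicate 2 or E9.5 replicate 3 (edgeR adjusted p = 0.077, 0.0748 and 0.156), and without E8.5 replicate 3 it was 3.73. The falls moved to -7.21 and -6.73 without E14 replicate 2, the only E14 library with counts, and the first to -3.25 without E9.5 replicate 3.

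Beside these falls stood those of the 10 endoderm and epithelium markers. Their summed level was 283.6 to 305.6 CPM at E8, 185.5 to 447.7 CPM at E8.5, 107.4 to 141.1 CPM at E9.5 and at most 16.7 CPM at E14. All 10 fell at E9.5 against E8.5, while at E14 against E9.5 6 fell and 1 rose, and at E14 against E8 9 fell. Of all genes tested, 18.5%, 24.6% and 29.2% were lower in these comparisons. At E9.5 against E8.5 Foxa1, Foxe1 and Foxi3 fell as the markers did, but Foxa3, Foxf1 and Foxf2 did not pass and Foxi2 rose. The foregut markers Pax9 and Nkx2-1 had log2 fold changes of -3.45 ± 0.40 and -4.33 ± 0.86 at E9.5 against E8.5 (edgeR adjusted p = 0.000148 and 0.00279). None of the 10 is a forkhead gene, and their part in the fall of Foxa1, Foxa3, Foxe1 and Foxi3 was not tested.

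**Figure D2:**
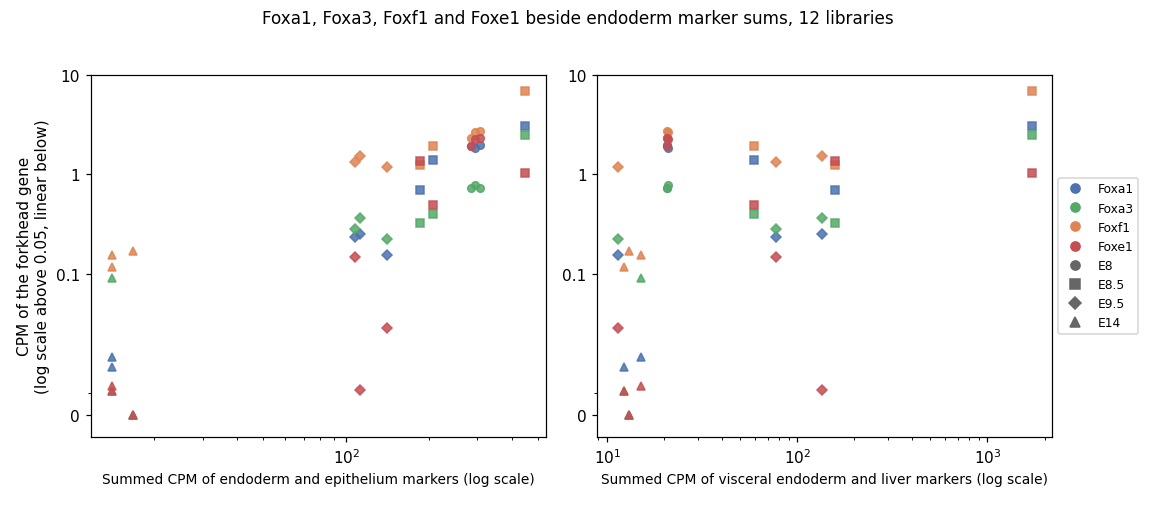
CPM of Foxa1, Foxa3, Foxf1 and Foxe1 (y axis, logarithmic above 0.05 and linear below) against the summed CPM of 10 endoderm and epithelium markers (left, log axis) and of 10 visceral endoderm and liver markers (right, log axis) in the 12 libraries. Colour gives the gene and shape the stage. The E14 libraries lie at the lowest endoderm marker sums, and E8.5 replicate 3, at 447.7 and 1707.7 CPM, holds the highest Foxa1, Foxa3 and Foxf1 levels.

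The hedgehog pathway, which acts upstream of Foxf1 and Foxf2, had 16 genes, all tested. At E9.5 against E8.5, 3 rose and 9 fell, at E14 against E9.5 3 rose and 8 fell, and at E14 against E8 5 rose and 8 fell, where 37%, 50% and 60.7% of all genes were called. The ligand Shh, also counted among the endoderm markers, averaged 0.00794 CPM at E14, against 0.815 CPM at E8, and fell by 6.32 ± 0.74 (edgeR adjusted p = 1.41e-05). The effector Gli1 fell by 3.34 ± 0.34 and the target Hhip fell by 3.36 ± 0.42 at E14 against E8 (edgeR adjusted p = 4.78e-06 and 2.81e-05), and the co-receptor Boc rose by 1.94 ± 0.13 (edgeR adjusted p = 1.09e-07). At E8.5 against E8 edgeR called 0 of the 16, with 7 at an unadjusted p under 0.05, DESeq2 called 3 higher, and edgeR without E8.5 replicate 3 called 6 higher and 2 lower.

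Foxs1, known from mural cells around vessels and from the neural crest lineage, ran the other way. It had 0.00955, 0.00858 and 0.0479 CPM at E8, 0, 0.111 and 0 CPM at E8.5, 0.0262, 0.0453 and 0.0228 CPM at E9.5, and 1.96, 2.1 and 1.78 CPM at E14. The 3 E14 libraries lay above all 9 others, which overlapped. Foxs1 met the mark for a well measured gene through E14 alone, with 103, 194 and 137 counts. It had 1, 1 and 6 counts at E8, 0, 12 and 0 at E8.5, and 2, 4 and 2 at E9.5. The size of its rise therefore rests on few earlier counts. Foxs1 rose by 5.88 ± 0.88 at E14 against E9.5 (edgeR adjusted p = 0.000189) and by 6.33 ± 0.88 at E14 against E8 (edgeR adjusted p = 7.44e-05), the second being 7.55 ± 1.15 without E8 replicate 3. The 8 fibroblast and mural markers summed to 2249.8 to 2307.1 CPM at E14, against 280.7 to 456.9 CPM at E9.5 and 153.9 to 162.8 CPM at E8, and all 8 rose at E14 against E9.5 (Pdgfrb by 1.53 and Rgs5 by 0.98). Neural crest markers (6 genes) summed to 106.7 to 124.4 CPM at E14, against 35.5 to 50.7 CPM at E9.5. Of these 6, 3 rose at E14 against E9.5, while 2 rose and 1 fell at E14 against E8. Of all genes tested, 25.4% were higher at E14 against E9.5 and 31.5% at E14 against E8. The part of either cell population in the Foxs1 rise was not tested.

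**Figure D3:**
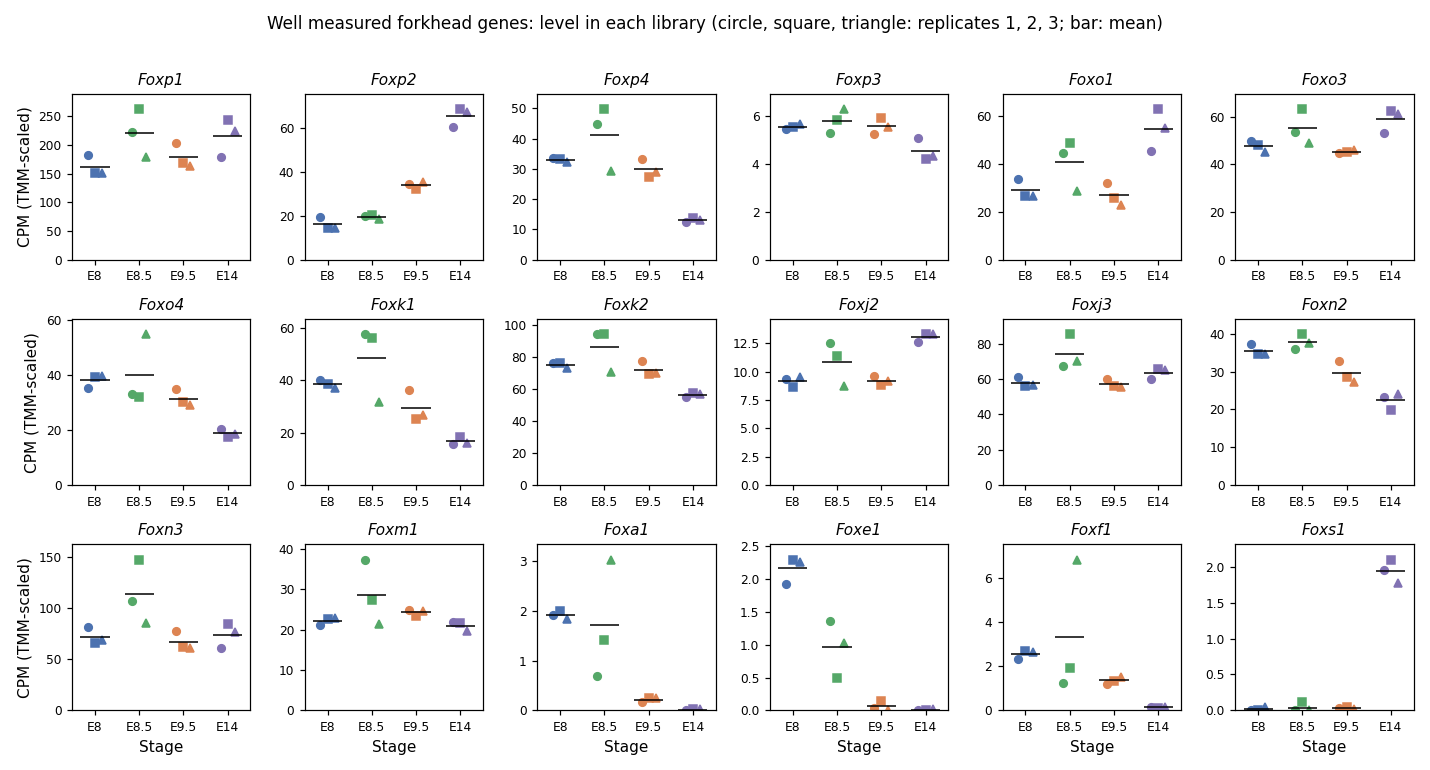
CPM (y axis, each panel from 0) of the 18 well measured forkhead genes in the 12 libraries, by stage (x axis). Circles, squares and triangles are replicates 1, 2 and 3, and the bar is the mean of 3. Foxs1 stands at 1.78 to 2.1 CPM at E14 and at most 0.111 CPM before, while Foxa1 and Foxe1 run towards 0.

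Foxp proteins are repressors that pair through a leucine zipper, as homodimers or with one another, and their 4 genes did not move together. Foxp2, known from brain and lung, had 19.3, 14.5 and 14.5 CPM at E8, 19.9, 20.3 and 18.5 CPM at E8.5, 34.6, 32.3 and 35.3 CPM at E9.5, and 60.5, 68.5 and 67.2 CPM at E14. The stages E8.5, E9.5 and E14 did not overlap, whereas E8 and E8.5 did. Foxp2 rose by 0.80 ± 0.11 at E9.5 against E8.5 (edgeR adjusted p = 0.00031), by 0.94 ± 0.11 at E14 against E9.5 (edgeR adjusted p = 1.9e-05) and by 2.02 ± 0.11 at E14 against E8, 4.06-fold (edgeR adjusted p = 3.23e-08).

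Foxp4, expressed in the lung and the heart, had 33.6, 33.1 and 32.2 CPM at E8, 44.9, 49.8 and 29.2 CPM at E8.5, 33.4, 27.2 and 28.9 CPM at E9.5, and 12.4, 13.7 and 13 CPM at E14. The E14 libraries lay below all others. It fell by 1.19 ± 0.16 at E14 against E9.5 (edgeR adjusted p = 6.7e-05) and fell by 1.34 ± 0.16 at E14 against E8 (edgeR adjusted p = 1.72e-05). It fell by 0.47 ± 0.15 at E9.5 against E8.5 (edgeR adjusted p = 0.0328), with overlapping libraries, which ended without E8.5 replicate 1, E8.5 replicate 2, E9.5 replicate 2, E9.5 replicate 3 or E14 replicate 3 (edgeR adjusted p = 0.0961, 0.136, 0.117, 0.0982 and 0.0527).

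Counted within each library, Foxp2 over Foxp4 was 0.488 ± 0.077 in E8, 0.494 ± 0.12 in E8.5, 1.15 ± 0.0988 in E9.5 libraries and 5.02 ± 0.142 at E14 (SD, n = 3 each), and without E8.5 replicate 3 the E8.5 mean was 0.426. The 3 ratios at E14 were 4.89, 5 and 5.17, and no earlier library exceeded 1.22. This ratio of counts follows the pair over time and is no ratio of molecules, since the transcripts and intervals differ in length. Foxp2 spans 540.6 kb and Foxp4 57.51 kb. With libraries adjusted for gene span, Foxp2 still rose by 1.47 ± 0.097 at E14 against E8 (edgeR adjusted p = 1.22e-07), and at E14 against E9.5 its value was 0.38 (edgeR adjusted p = 0.00565). At E9.5 against E8.5 the span-adjusted Foxp2 value was 1.27 ± 0.097 (edgeR adjusted p = 8.81e-06), so the later step was then the smaller.

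Foxp1, which acts in heart muscle growth and outflow tract septation, had 182, 152 and 152 CPM at E8, 223, 263 and 179 CPM at E8.5, 204, 169 and 164 CPM at E9.5, and 180, 243 and 224 CPM at E14. E14 and E8 overlapped. Foxp1 rose by 0.41 ± 0.15 at E14 against E8 (edgeR adjusted p = 0.035). The call ended without E14 replicate 2, E14 replicate 3, E8 replicate 2 or E8 replicate 3 (edgeR adjusted p = 0.168, 0.11, 0.111 and 0.111), and with libraries adjusted for span (597.4 kb here) it turned to -0.19 ± 0.068 (edgeR adjusted p = 0.027).

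Foxp3, the factor of regulatory T cells, had 5.43 to 5.64 CPM at E8, 5.28 to 6.28 CPM at E8.5, 5.24 to 5.9 CPM at E9.5 and 4.19 to 5.07 CPM at E14. It fell by 0.30 ± 0.11 at E14 against E9.5 (edgeR adjusted p = 0.0348) and fell by 0.29 ± 0.11 at E14 against E8 (edgeR adjusted p = 0.0302). The calls ended without E14 replicate 2 (edgeR adjusted p = 0.102 and 0.0853), E14 replicate 3 (0.0916 and 0.0756) or E8 replicate 3 (0.05 and 0.0791), the first also without E9.5 replicate 2 or 3 (0.121 and 0.0693) and the second without E8 replicate 1 or 2 (0.0501 and 0.0653). Gm36995 and Ccdc22 lie on the opposite strand of the Foxp3 interval with 3.43 and 2.26 times its counts, so its level is uncertain.

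Of 12 corepressor partners of Foxp proteins (CtBP, NuRD and NCoR components), 2 rose and 3 fell at E9.5 against E8.5. At E14 against E9.5 6 fell, and at E14 against E8 7 fell, with no riser in either by edgeR or DESeq2. Of all genes, 37%, 50% and 60.7% were called in these comparisons and 24.6% and 29.2% were lower in the last pair. Mta1, of the NuRD complex, fell by 1.14 ± 0.11 and its helicase Chd4 fell by 0.80 ± 0.073 at E14 against E8 (edgeR adjusted p = 2.75e-06 and 1.89e-06), and Hdac1 fell by 0.59 ± 0.12 (edgeR adjusted p = 0.000795). At E8.5 against E8 edgeR called 0 of the 12, with 5 at an unadjusted p under 0.05, DESeq2 called 2 higher and 1 lower, and edgeR without E8.5 replicate 3 called 4 higher and 2 lower.

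Foxo proteins act downstream of insulin and Akt on growth arrest, metabolism and muscle protein breakdown. Foxo1, which embryonic vessels need, had 33.8, 26.5 and 26.7 CPM at E8, 44.7, 48.8 and 28.9 CPM at E8.5, 32.1, 25.9 and 22.7 CPM at E9.5, and 45.4, 63.1 and 55 CPM at E14. The E14 libraries lay above those of E9.5 and of E8. Foxo1 rose by 1.02 ± 0.20 at E14 against E9.5 (edgeR adjusted p = 0.00132) and by 0.91 ± 0.20 at E14 against E8 (edgeR adjusted p = 0.00203). It fell by 0.60 ± 0.20 at E9.5 against E8.5 (edgeR adjusted p = 0.0347), a call that ended without any 1 of E8.5 replicates 1 and 2, E9.5 replicates 2 and 3 and E14 replicate 3 (edgeR adjusted p between 0.0537 and 0.136) and with no filter on low counts (edgeR adjusted p = 0.0642). The value was -0.77 ± 0.17 without E8.5 replicate 3 (edgeR adjusted p = 0.00384). The 8 endothelium and endocardium markers summed to 853.8 to 889.5 CPM at E14, against 486.5 to 548.3 CPM at E9.5 and 538.3 to 544.2 CPM at E8, and 7 of the 8 rose in both comparisons. Of all genes tested, 25.4% were higher at E14 against E9.5 and 31.5% at E14 against E8. At E9.5 against E8.5 1 of the 8 markers rose and 1 fell. The part of these cells in the Foxo1 rise was not tested.

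Foxo4 moved against Foxo1. It had 35.4, 39.4 and 39.7 CPM at E8, 33, 32 and 54.8 CPM at E8.5, 35, 30.1 and 29 CPM at E9.5, and 20.4, 17.3 and 18.5 CPM at E14. The E14 libraries lay below all others, and Foxo4 fell by 0.74 ± 0.18 at E14 against E9.5 (edgeR adjusted p = 0.00449) and fell by 1.03 ± 0.18 at E14 against E8 (edgeR adjusted p = 0.000375). Within libraries, the count ratio of Foxo1 over Foxo4 was 0.768 ± 0.163 in E8, 1.14 ± 0.534 in E8.5, 0.854 ± 0.0664 in E9.5 libraries and 2.95 ± 0.719 at E14 (SD, n = 3 each). The E8.5 ratios were 1.35, 1.53 and 0.528, the last in replicate 3, and averaged 1.44 without it.

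Foxo3 had 49.8, 48.3 and 45.3 CPM at E8, 53.8, 63.3 and 49.1 CPM at E8.5, 44.8, 45.1 and 45.9 CPM at E9.5, and 53.4, 62.3 and 61 CPM at E14. It rose by 0.38 ± 0.095 at E14 against E9.5 (edgeR adjusted p = 0.00539) and by 0.30 ± 0.094 at E14 against E8 (edgeR adjusted p = 0.0155), the second call ending without E14 replicate 2, E14 replicate 3 or E8 replicate 3 (edgeR adjusted p = 0.0865, 0.0729 and 0.0688). Foxo3 fell by 0.29 ± 0.094 at E9.5 against E8.5 (edgeR adjusted p = 0.0306), which ended without any library of E9.5, E8.5 replicate 2 or E14 replicate 3 (edgeR adjusted p between 0.0531 and 0.111), and with no filter on low counts (edgeR adjusted p = 0.0598). Foxo6, the member known from brain, was low, with 47, 165 and 97 counts at E14, against 65, 66 and 60 at E9.5. It rose by 0.79 ± 0.24 at E14 against E9.5 (edgeR adjusted p = 0.0144), a call that ended without E14 replicate 2 or E9.5 replicate 3 (edgeR adjusted p = 0.11 and 0.0543), and by 1.13 ± 0.24 at E14 against E8 (edgeR adjusted p = 0.00126).

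**Figure D4:**
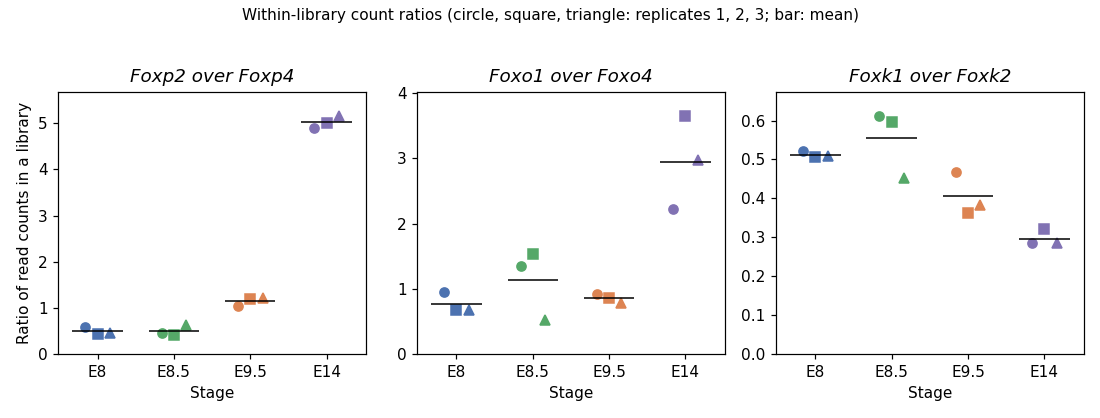
Ratio of read counts within each library (y axis, from 0) for Foxp2 over Foxp4, Foxo1 over Foxo4 and Foxk1 over Foxk2, by stage (x axis). Circles, squares and triangles are replicates 1, 2 and 3, and bars are means. The first ratio reached 5.02 and the second 2.95 on average at E14, and the third was lowest there, at 0.296.

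Of 20 genes that feed the Foxo proteins or are known Foxo targets, 4 rose and 8 fell at E9.5 against E8.5, 14 rose and 3 fell at E14 against E9.5, and 13 rose and 2 fell at E14 against E8, where 37%, 50% and 60.7% of all genes were called. The targets Txnip and Trim63, a muscle ubiquitin ligase, rose by 1.72 ± 0.22 and 1.87 ± 0.091 at E14 against E8 (edgeR adjusted p = 3.29e-05 and 1.54e-08). The other muscle ligase, Fbxo32, fell by 2.05 ± 0.16, to 25.6 CPM at E14 against 106 CPM at E8 (edgeR adjusted p = 5.53e-07), and the receptor adaptor Irs2 fell by 1.30 ± 0.081 (edgeR adjusted p = 8.57e-08). At E9.5 against E8.5 the target Gadd45a rose by 1.16 ± 0.27 and Trim63 by 0.64 ± 0.089 (edgeR adjusted p = 0.00608 and 0.000391). The receptors Insr and Igf1r fell by 0.63 ± 0.10 and 0.62 ± 0.20 there (edgeR adjusted p = 0.000805 and 0.0339), and 4 rather than 8 of the 20 fell once libraries were adjusted for span. At E8.5 against E8 edgeR called 0 of the 20, with 6 at an unadjusted p under 0.05, DESeq2 called 4 higher and 1 lower, and edgeR without E8.5 replicate 3 called 4 higher and 2 lower.

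Foxk1, a gene of muscle progenitors, and its sister Foxk2 both fell. Foxk1 had 40, 38.5 and 37.2 CPM at E8, 57.7, 56.3 and 31.9 CPM at E8.5, 36.2, 25.2 and 26.8 CPM at E9.5, and 15.6, 18.4 and 16.2 CPM at E14. It fell by 0.81 ± 0.20 at E14 against E9.5 (edgeR adjusted p = 0.00598) and fell by 1.20 ± 0.20 at E14 against E8 (edgeR adjusted p = 0.000325), without overlap. With overlap, it fell by 0.73 ± 0.20 at E9.5 against E8.5 (edgeR adjusted p = 0.0156), which ended without E8.5 replicate 1 or 2 or E9.5 replicate 2 or 3 (edgeR adjusted p between 0.0562 and 0.0665).

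Foxk2 had 76.5, 76.1 and 73.3 CPM at E8, 94.2, 94.3 and 70.5 CPM at E8.5, 77.5, 69.3 and 69.8 CPM at E9.5, and 55.1, 57.5 and 56.8 CPM at E14. It fell by 0.35 ± 0.10 at E14 against E9.5 (edgeR adjusted p = 0.0126) and fell by 0.41 ± 0.10 at E14 against E8 (edgeR adjusted p = 0.00391). The count ratio of Foxk1 over Foxk2 was 0.512 ± 0.00928 in E8, 0.554 ± 0.0887 in E8.5, 0.405 ± 0.0553 in E9.5 libraries and 0.296 ± 0.0205 at E14 (SD, n = 3 each), and the E14 libraries had the lowest ratios of the 12. The E8.5 ratio was 0.605 without E8.5 replicate 3, and Foxk2 then fell by 0.36 ± 0.066 at E9.5 against E8.5 (edgeR adjusted p = 0.00124).

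Among the broadly expressed Foxj2, Foxj3, Foxn2 and Foxn3, the largest log2 change with all libraries was the 0.76 by which Foxn3 fell at E9.5 against E8.5. This holds without an adjustment for gene span. Foxn2 had 37.3, 34.6 and 34.8 CPM at E8, 35.9, 39.9 and 37.7 CPM at E8.5, 32.9, 28.6 and 27.2 CPM at E9.5, and 23.3, 19.8 and 24.1 CPM at E14. It fell by 0.36 ± 0.092 at E9.5 against E8.5 (edgeR adjusted p = 0.0111), fell by 0.40 ± 0.093 at E14 against E9.5 (edgeR adjusted p = 0.00342) and fell by 0.67 ± 0.093 at E14 against E8 (edgeR adjusted p = 5.99e-05), the first ending without E9.5 replicate 3 (edgeR adjusted p = 0.0567). Foxn2 was the only well measured gene besides Foxa1, Foxk1 and Foxp4 to fall in all 3 of these comparisons.

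Foxn3, known for a role in cell cycle checkpoints, had 81.5, 65.8 and 69.1 CPM at E8, 107, 148 and 86.1 CPM at E8.5, 78.2, 61.8 and 61.4 CPM at E9.5, and 60.8, 84.6 and 77.1 CPM at E14. It fell by 0.76 ± 0.19 at E9.5 against E8.5 (edgeR adjusted p = 0.0094), where each E9.5 library lay below each E8.5 library. Adjusted for its span of 255.1 kb, the value there was -0.33 ± 0.098 (edgeR adjusted p = 0.0224). At E14 against E8 the Foxn3 value was 0.04 ± 0.19 (edgeR adjusted p = 0.864), and the same adjustment turned this to -0.31 ± 0.098 (edgeR adjusted p = 0.0154).

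Foxj2 had 9.38, 8.64 and 9.56 CPM at E8, 12.5, 11.4 and 8.7 CPM at E8.5, 9.63, 8.85 and 9.17 CPM at E9.5, and 12.6, 13.3 and 13.3 CPM at E14. The E14 libraries were the highest of all, and it rose by 0.50 ± 0.11 at E14 against E9.5 (edgeR adjusted p = 0.00315) and by 0.51 ± 0.11 at E14 against E8 (edgeR adjusted p = 0.00224). Foxj3 had 61.1, 56 and 56.4 CPM at E8, 67.5, 85.4 and 70.1 CPM at E8.5, 60.2, 56 and 55.4 CPM at E9.5, and 60, 65.6 and 65.2 CPM at E14. It fell by 0.38 ± 0.091 at E9.5 against E8.5 (edgeR adjusted p = 0.00748), and adjusted for span the value was -0.13 (edgeR adjusted p = 0.0958).

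Foxm1, the driver of mitotic gene expression, had 21.2, 22.6 and 22.9 CPM at E8, 37.4, 27.3 and 21.3 CPM at E8.5, 24.9, 23.4 and 24.6 CPM at E9.5, and 21.8, 21.7 and 19.6 CPM at E14. With all libraries it passed no comparison and missed the threshold over the 4 stages together (edgeR adjusted p = 0.0759). Without E8.5 replicate 3, it rose by 0.51 ± 0.11 at E8.5 against E8 (edgeR adjusted p = 0.0061) and fell by 0.39 ± 0.11 at E9.5 against E8.5 (edgeR adjusted p = 0.0145). Its log2 fold change at E14 against E9.5 was -0.21 ± 0.15 (edgeR adjusted p = 0.29), although each E14 library lay below each E9.5 library, and -0.23 ± 0.066 with these stages fitted alone (edgeR adjusted p = 0.0167). Of 17 mitotic genes known to act with or under Foxm1, 14 fell and 1 rose in that comparison, where 50% of all genes were called. Ccnb1 fell by 1.09 ± 0.11 and the kinase Aurka fell by 0.89 ± 0.11 (edgeR adjusted p = 9.37e-06 and 2.68e-05). The kinase Plk1 fell to 19.7 ± 2.04 CPM at E14, against 39.5 ± 0.827 CPM at E9.5 (SD, n = 3 each, edgeR adjusted p = 1.47e-05), and Cdc25b rose by 0.99 ± 0.20 (edgeR adjusted p = 0.00176).

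At E14 against E8, where 60.7% of all genes were called, 12 of the 17 mitotic genes fell and Cdc25b rose, by 2.55 ± 0.22 (edgeR adjusted p = 1.24e-06). In E9.5 against E8.5, where 37% of all genes were called, 10 rose, led by Cdc25b at 1.27 ± 0.21 and Ccnb2 at 0.62 ± 0.11 (edgeR adjusted p = 0.00102 and 0.00128). With all libraries none fell by edgeR or DESeq2. As single libraries were left out, 6 to 13 rose and 0 to 1 fell. Against E8, the E8.5 libraries gave 0 calls by edgeR, with 3 at an unadjusted p under 0.05, and 0 by DESeq2. Without E8.5 replicate 3, edgeR called 9 of them lower at E8.5.

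Other low members had few reads. Foxl2, known from the ovary, had 19, 17 and 13 counts at E8, 19, 30 and 7 at E8.5, 4, 6 and 1 at E9.5, and 0, 1 and 1 at E14. It fell by 1.90 ± 0.64 at E9.5 against E8.5 (edgeR adjusted p = 0.0368) and fell by 3.82 ± 0.87 at E14 against E8 (edgeR adjusted p = 0.00234). The first call ended in DESeq2 (DESeq2 adjusted p = 0.0535) and without any library of E8, E8.5 replicates 1 or 2, any library of E9.5 or E14 replicates 2 or 3 (edgeR adjusted p between 0.0501 and 0.164). Its non-coding neighbour Foxl2os had 105 counts over the E9.5 libraries and none at E14, a level at least 30.8-fold lower at E14 (floor of 3 counts over the group) and at least 61.1-fold lower than at E8.

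Foxn4, known from retinal progenitors, had 1, 1 and 4 counts at E14, against 7, 14 and 7 at E9.5 and 14, 8 and 13 at E8. It fell by 1.97 ± 0.58 at E14 against E9.5 (edgeR adjusted p = 0.0137) and fell by 1.85 ± 0.57 at E14 against E8 (edgeR adjusted p = 0.0141). Both calls ended without E14 replicate 2 (edgeR adjusted p = 0.0656 and 0.0692), the first also without E9.5 replicate 2 (edgeR adjusted p = 0.0684), and without E14 replicate 3 the values were -2.90 and -2.79.

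Foxq1, known from hair and stomach epithelium, had 18, 14 and 12 counts at E9.5, against 38, 36 and 69 at E8.5, and fell by 1.27 ± 0.35 (edgeR adjusted p = 0.0141). The call ended without E8.5 replicate 3, E9.5 replicate 2 or E9.5 replicate 3 (edgeR adjusted p = 0.0505, 0.0578 and 0.064). At E14 against E8 the Foxq1 value was -0.29 ± 0.35 (edgeR adjusted p = 0.486). An interval on the opposite strand, A530084C06Rik, covers 38.1% of Foxq1 with 0.598 times its counts.

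Foxj1, Foxl1 and Foxd2 passed no comparison with all libraries. Foxj1, the master gene of motile cilia, had 4 to 45 counts a library, Foxl1, of gut mesenchyme, 20 to 48, and Foxd2 1 to 17. Without E8.5 replicate 3, where Foxj1 had 45 counts, Foxj1 fell by 1.81 ± 0.56 at E8.5 against E8 and by 1.25 ± 0.48 at E14 against E8 (edgeR adjusted p = 0.0289 and 0.0391), and Foxd2 fell by 2.71 ± 0.86 at E8.5 against E8 (edgeR adjusted p = 0.0331). The Foxl1 interval lies wholly inside Gm20388, as Foxf1 does.

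Of 16 motile cilium genes, 2 rose and 3 fell at E9.5 against E8.5, 5 rose and 2 fell at E14 against E9.5, and 4 rose and 3 fell at E14 against E8. These shares lie below the 37%, 50% and 60.7% of all genes called. Mlf1 rose by 3.78 ± 0.20 at E14 against E8, to 58.8 CPM at E14 against 4.26 CPM at E8 (edgeR adjusted p = 3.07e-08). The axonemal gene Spag6 rose by 2.59 ± 0.27, the ciliary regulator Rfx2 by 1.64 ± 0.12 and Tppp3 by 1.62 ± 0.21 (edgeR adjusted p = 4.99e-06, 2.65e-07 and 3.82e-05). The 3 that fell there, named after their values were seen, were Ccdc40 at -1.34 ± 0.12, Tekt1 at -1.22 ± 0.30 and the dynein gene Dnah11 at -0.63 ± 0.18 (edgeR adjusted p = 1.74e-06, 0.00372 and 0.0078). At E8.5 against E8 edgeR called Mlf1 alone, lower (edgeR adjusted p = 0.049), a call that ended with libraries adjusted for span. DESeq2 called 2 higher and 1 lower there, and edgeR without E8.5 replicate 3 called 2 higher and 2 lower.

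Non-coding neighbours named for forkhead genes, or lying beside them, were 4, of which 3 were tested. Fendrr, the long non-coding RNA transcribed away from Foxf1, had 0.057, 0.0756 and 0.117 CPM at E14, against 0.577, 0.68 and 1.03 CPM at E9.5, and fell by 3.15 ± 0.49 (edgeR adjusted p = 0.000232). Its E14 libraries lay below all E9.5 libraries, as those of Foxf1 did, and in E8.5 replicate 3 it had 2.37 CPM, its highest level. Foxd2os rose by 1.15 ± 0.27 in the same comparison (edgeR adjusted p = 0.00384), to a mean of 0.551 CPM at E14 against 0.245 CPM at E9.5.

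Members near the floor, among them Foxb1, Foxb2, Foxd1, Foxd3, Foxd4, Foxe3, Foxi1, Foxn1, Foxr1 and Foxr2, had 0 to 18 counts in a library. Foxb1, Foxb2, Foxd4, Foxe3 and Foxi1 had at most 10 counts over all 12 libraries. Foxd1, of kidney stroma, reached 18 counts, in E8.5 replicate 3, and Foxd3, of early neural crest, had 7, 3 and 1 counts at E14, against 1, 2 and 0 at E8. No change can be read from such counts at this depth.

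**Figure D5:**
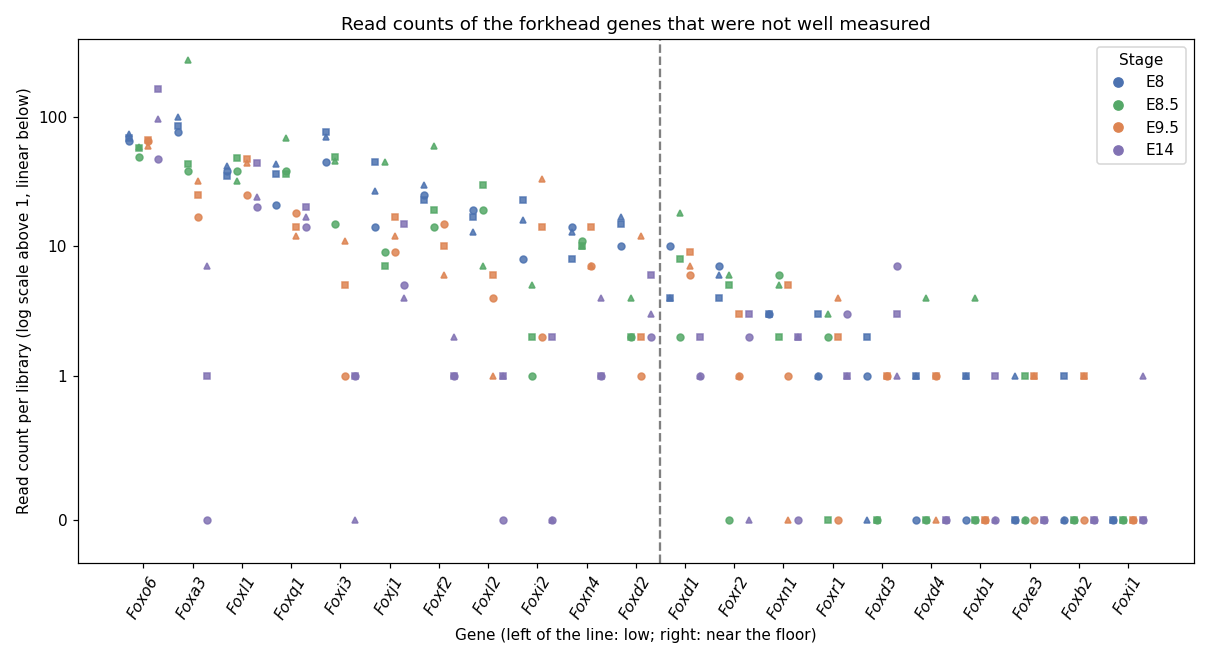
Read count per library (y axis, logarithmic above 1 and linear below) of 21 forkhead genes that were not well measured, with the 11 low ones left of the dashed line and 10 near the floor right of it. Colour gives the stage and circles, squares and triangles replicates 1, 2 and 3. The highest point is Foxa3 in E8.5 replicate 3, at 276 counts.

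Counted by the stage of the highest mean level, 11 of the 18 well measured genes peaked at E8.5, 5 at E14 and 2 at E8. This is a description of means. The shares of all genes tested that peaked at each stage were not counted, so it gives no trait particular to forkhead genes. Without E8.5 replicate 3, 9 peaked at E8.5, 5 at E14 and 4 at E8, Foxf1 and Foxo4 then being highest at E8, and Foxp3 had the same rounded mean, 5.55 CPM, at E9.5 and E8.5. The median span of the 18 was 49.9 kb, against 11.4 kb over all genes tested.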

How the data were processed

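RNA of 12 libraries, 3 at each of 4 stages, was analysed from 1 table of raw read counts per gene interval, deposited by the authors, with no normalization. Per the submitters' processing notes, STAR 2.5.0 and Cufflinks 2.2.1 were used and the builds hg38, mm10 and GRCm38 are named; which tool counted reads, with or without strand or introns, is not given in the sources used. Of 48709 intervals, 42778 matched GENCODE M21 (GRCm38) in start and end, among them those of 31 of the 40 forkhead genes. A few forkhead genes and sequences are not reported here.

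Stages came from the labels. The main test was edgeR 4.0.16 (R 4.3.3) with TMM factors (0.913 to 1.07), filterByExpr, a robust quasi-likelihood fit with 1 mean per stage over all 12 libraries, and Benjamini-Hochberg adjustment over 28846 genes; the common dispersion was 0.0362. The scripts were tested on simulated data. Totals per library were 101231014 to 122785175 counts (E8), 101202593 to 111404849 counts (E8.5), 73056001 to 90620692 counts (E9.5) and 56574386 to 97187372 counts (E14), and intervals on sums of counts cover counting error only. Sampling noise did not account for the differences between replicates (mean chi-square per gene 7.88 to 184), so none was merged.

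Alternatives were RLE and upper-quartile factors, DESeq2 1.42.0, no filter, a filter of at least 1 CPM in 3 libraries, the replicate number as a block, an adjustment for gene span, no small structural RNAs, the 2 stages of a comparison alone, and each library left out. Overlapping intervals were treated as uncertain where the partner held over 0.5 times a member's counts. All well measured members are named with values, low members where they passed a test, the rest by their counts, and of each pathway list up to 4 called genes a comparison, those with the largest change, beside 3 cilium genes named after their values were seen. Members and lists were chosen with earlier results of these data known, so their counts are descriptions. Sequences came from GENCODE M21 transcripts and RefSeq promoters.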

Additional observations from a re-analysis of the deposited data

How the results depend on the processing

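Over single genes and alternatives, 1972 values kept direction and side of the threshold, 97 lost the call, 44 gained one and 25 changed sign. Foxd2, Foxj1 and Foxl1 were not among these values, and a value of the same sign without an adjusted p was counted as kept. Counts of forkhead genes moved as follows. At E8.5 against E8, 1 rose with the filter of at least 1 CPM, 3 with DESeq2 and 0 to 10 as single libraries were left out, and 0 to 5 fell (the highest of both without E8.5 replicate 3). At E9.5 against E8.5, 1 rose and 3 fell with these stages alone, 1 rose with the 1 CPM filter, and 1 to 3 rose and 5 to 15 fell as libraries were left out. At E14 against E9.5, 5 to 6 rose and 8 to 14 fell, and at E14 against E8, 5 to 7 rose and 13 to 16 fell, as libraries were left out. With the 1 CPM filter 9 fell at E14 against E8 and 16 differed over the 4 stages, since it tests fewer members (19800 genes in all); 21 to 26 differed as libraries were left out.

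Adjusting for span shifted the median of all genes by 0.11 at E8.5 against E8 and by -0.12 at E9.5 against E8.5, and turned Foxp1 to -0.058, 0.19, -0.33 and -0.19 in E8.5 against E8, E9.5 against E8.5, E14 against E9.5 and E14 against E8, Foxp2 to -0.18 at E8.5 against E8, Foxn3 to -0.24 and -0.31 at E14 against E9.5 and E8, and Foxj3 to -0.0048 at E14 against E9.5. Over the libraries left out, signs turned in E8.5 against E8 for Foxs1 (-4.20 to 1.85), Foxn4 (-0.36 to 0.089), Foxa3 (-1.09 to 0.95), Foxf1 (-0.72 to 0.77), Foxl2 (-0.34 to 0.58), Foxa1 (-0.90 to 0.21), Foxf2 (-0.64 to 0.67), Foxp3 (-0.032 to 0.13) and Foxo4 (-0.27 to 0.20), in E9.5 against E8.5 for Foxs1 (-0.77 to 4.65), Foxn4 (-0.10 to 0.45) and Foxp3 (-0.12 to 0.03), and in E14 against E8 for Foxn3 (-0.096 to 0.13). The cause was not tested.

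Deviations of log2 CPM from the stage means correlated at -0.084 to 0.134 between same-numbered libraries, so the numbers are not known to pair them. With the replicate block, 12 forkhead genes fell at E14 against E9.5 and 14 at E14 against E8, Foxp3 being lost from both, 22 differed over the 4 stages, and Foxa3 turned to -0.057 at E8.5 against E8. Depth limits the low members, whose E14 counts were mostly under 10.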
